A study of Mus musculus with 2 samples.

Results

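The genes that write, read and erase DNA methylation and that build the Polycomb complexes were compared between cultured mouse neural retinal progenitor cells (mNRPCs) and retina tissue. The set holds 10 genes, chosen by name, of 31253 genes in the expression table. Dnmt1, Dnmt3a and Dnmt3b encode the enzymes that place methyl groups on cytosine, Uhrf1 encodes a partner of DNMT1, Tet1, Tet2 and Tet3 encode enzymes that oxidise these groups, and Ezh1, Ezh2 and Bmi1 are Polycomb genes. The mNRPC library was made from C57BL/6 cells isolated from adult retina and grown to passage 24. The medium given in the methods for mNRPCs held basic fibroblast growth factor and CHIR99021, which inhibits GSK3. The retina library was made from retina tissue of the same strain, with no treatment in the labels and no age of the animals. With 1 library per group, the differences below could not be set against replicate spread, and no p-value was computed. Passage, culture medium, cell type and library cannot be told apart in this design. In bulk samples, fewer cells of a type and less RNA per cell cannot be told apart either.

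DNA methylation at CpG sites is copied to the new strand after replication by DNMT1, which UHRF1 brings to hemimethylated DNA. DNMT3A and DNMT3B methylate sites that carried no mark. TET enzymes oxidise methylcytosine as a first step of its removal. Polycomb repressive complex 2 (PRC2) methylates H3K27 through its catalytic subunit, EZH2 or EZH1, and Polycomb repressive complex 1 (PRC1), to which BMI1 belongs, ubiquitinates histone H2A. EZH2 is known for its high level in dividing cells and EZH1 for its presence in cells that have left the cell cycle. BMI1 is known in neural stem cells as a repressor of the Cdkn2a locus.

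Levels are given in FPKM, fragments scaled by transcript length and library size, summed over the RefSeq transcripts of a gene. The log2 ratio was taken as log2((mNRPC FPKM + 1)/(retina FPKM + 1)). It understates the differences of genes with low levels. Genes with a log2 ratio of 1 or more, or of −1 or less, were called higher or lower. Folds are plain FPKM ratios. Their 95% Clopper-Pearson intervals were made from estimated fragments and cover counting error only. The depth was estimated at 6.64e+06 fragments in the mNRPC library and 4.99e+06 in the retina library. Of the retinal progenitor markers, Pax6 was at 123 FPKM in mNRPCs, Sox2 at 231, Six3 at 39.7 and Nes at 9.42, while Rax was listed at 0. The 6 rod markers summed to 9.12 FPKM in mNRPCs and 19220 FPKM in retina. Microglia markers summed to 0.00796 FPKM in mNRPCs and 1.21 FPKM in retina, with Cx3cr1, Aif1, Ptprc and P2ry12 listed at 0 in mNRPCs. The 5 markers of pericytes and fibroblasts summed to 458 FPKM in mNRPCs and 5.63 FPKM in retina, of which Col3a1 made up 450 FPKM, with Col1a2 at 0.0843 FPKM. Their part in the results below was not tested.

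Each of the 10 genes had at least 1 FPKM in a library. Of these, 3 were higher in mNRPCs (Dnmt1, Uhrf1 and Ezh2), 3 were lower (Dnmt3a, Tet2 and Tet3) and 4 lay within 2-fold on the log2(FPKM + 1) scale. Among all 13780 genes of at least 1 FPKM, 24.5% were higher and 30% were lower by the same rule, so the shares of 30% and 30% in the set were near the background. The deposited FPKM summed to 616860 in the mNRPC library and 432256 in the retina library. When both libraries were scaled to 1 FPKM sum larger than either of these, 2 members were higher and 6 lower. This also gives the added 1 FPKM less weight. Of all genes with at least 1 FPKM after this scaling, 18.4% were higher and 42.4% lower. When both libraries were scaled to the geometric mean of their FPKM sums, which keeps that weight on average, 2 members were higher and 5 lower. The shares of all genes were then 17.9% and 39.5%, also filtered after scaling. With a pseudocount of 0.1 FPKM, 3 were higher and 6 lower, against 26.5% and 33.1%. The maintenance genes and Ezh2 were above the retina level, and the other 7 genes were below it. The median log2 ratio of the 10 genes was −0.86, against −0.12 over all genes compared.

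**Figure D1:**
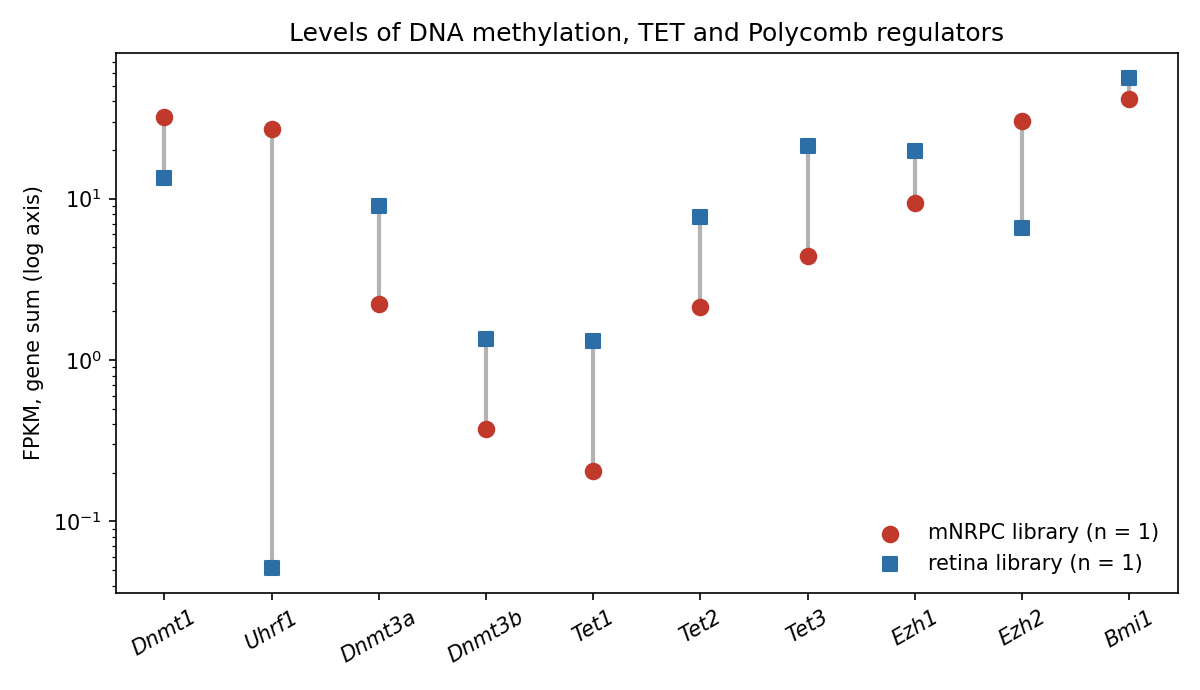
FPKM of each gene (log axis) in the mNRPC library (circles) and the retina library (squares), 1 library each, with a grey line joining both values. Dnmt1, Uhrf1 and Ezh2 were above retina in mNRPCs and the other 7 genes below it, and the longest line is that of Uhrf1, from 27.2 to 0.0514 FPKM.

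The maintenance genes were described first. Dnmt1, the maintenance methyltransferase (chr9:20907206-20959888, GRCm38), was at 32.2 FPKM in mNRPCs and 13.4 FPKM in retina. This was 2.40-fold higher in mNRPCs (95% interval 2.13 to 2.71), with a log2 ratio of 1.20. The call for Dnmt1 depended on scaling. Its log2 ratio was 0.73 after scaling to the larger sum, which took the median over all genes compared down to −0.68, and relative to the median it was 1.32 as deposited and 1.42 after rescaling. Uhrf1, which guides DNMT1 to hemimethylated sites (chr17:56303337-56323486), was at 27.2 FPKM in mNRPCs and 0.0514 FPKM in retina. The mNRPC value came from an estimated 631 fragments and the retina value from 0.886, which was divided almost evenly over its 6 transcript rows at 16.4% to 17.0% each. The ratio was 529, with a counting interval of 83.8 to 18539, and the log2 ratio was 4.74, at percentile 98.6 of all genes compared. The 2 maintenance genes had like levels in mNRPCs, where Dnmt1 was 1.19 times Uhrf1. In retina Dnmt1 was at a middle level, percentile 60.4 of the genes compared, while Uhrf1 was at percentile 2.19.

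The de novo methyltransferases went the other way. Dnmt3a (chr12:3801559-3914443) was at 2.24 FPKM in mNRPCs and 8.96 FPKM in retina, 4.0-fold lower in mNRPCs (95% interval 3.26 to 4.94) with a log2 ratio of −1.62. Dnmt3b (chr2:153649411-153687730) was at 0.373 FPKM in mNRPCs and 1.35 FPKM in retina, from an estimated 9.91 and 26.4 fragments. It was 3.63-fold lower in mNRPCs (1.65 to 8.23), and with the added 1 FPKM its log2 ratio of −0.78 did not reach the threshold. Dnmt3a exceeded Dnmt3b in both libraries, by 6.01 times in mNRPCs and 6.63 times in retina. The balance within the family therefore differed. Dnmt1 held 92.5% of the summed FPKM of the 3 methyltransferases in mNRPCs and 56.5% in retina, and Dnmt3a held 6.42% and 37.8%.

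The TET genes were all at lower FPKM in mNRPCs, and in summed FPKM their order was the same in both libraries. Tet3 (chr6:83362373-83457208) was at 4.43 FPKM in mNRPCs and 21.3 FPKM in retina, 4.81-fold lower (95% interval 4.24 to 5.45), with a log2 ratio of −2.04, the lowest of the 10 genes. Tet2 (chr3:133463677-133545136) was at 2.13 and 7.70 FPKM, 3.61-fold lower (2.95 to 4.45), with a log2 ratio of −1.47. Tet1 (chr10:62804570-62887469) was at 0.206 and 1.30 FPKM, 6.32-fold lower (3.90 to 11.2), with a log2 ratio of −0.93, inside the threshold. Tet1 had an estimated 19.4 fragments in mNRPCs, and its level lay above the 0.0319 FPKM that 3 fragments would give. Tet3 held most of the family sum, 65.5% in mNRPCs and 70.3% in retina, followed by Tet2 with 31.5% and 25.4% and Tet1 with 3.05% and 4.30%. The 3 TET genes summed to 6.77 FPKM in mNRPCs and 30.3 FPKM in retina, while the 3 methyltransferases summed to 34.8 and 23.7 FPKM. The ratio of methyltransferase to TET FPKM was thus 5.15 in mNRPCs and 0.783 in retina, and on curated rows it was 8.02 and 0.857.

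Of the Tet2 signal in retina, 75% lay on 1 predicted transcript row, XM_006501287.2, which held 21.1% in mNRPCs. With curated rows only, the log2 ratio of Tet2 was −0.40 and no longer passed the threshold, and the order of Tet1 and Tet2 differed between the libraries. In mNRPCs Tet2 (0.551 FPKM) was then above Tet1 (0.172), and in retina Tet1 (1.12) was above Tet2 (1.05). The retina values lie close together, and that of Tet1 was divided over NM_001253857.1 (0.572) and NM_027384.1 (0.548). The retina order therefore needs both Tet1 rows. With names from the RefSeq gene table alone, the log2 ratio of Tet1 was −0.66 instead of −0.93. A noncoding gene, B230319C09Rik (chr6:83441755-83448322), overlaps the Tet3 locus and was at 1.38 FPKM in retina and listed at 0 in mNRPCs. The curated Tet3 row NM_183138.2 ends at position 83441675, outside that gene. It held 89.4% of the Tet3 FPKM in retina and 72.0% in mNRPCs. The strand setting of the counting is not given in the sources used here, so reads of overlapping genes may not be told apart.

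The PRC2 catalytic subunits stood in opposite order in the 2 libraries. Ezh2 (chr6:47530274-47595270) was at 30.1 FPKM in mNRPCs and 6.56 FPKM in retina, 4.59-fold higher in mNRPCs (95% interval 3.67 to 5.79) with a log2 ratio of 2.04, at percentile 89.0 of the genes compared. Its paralogue Ezh1 (chr11:101191115-101226463) was at 9.44 and 19.7 FPKM, 2.09-fold lower in mNRPCs (1.78 to 2.44). The log2 ratio of Ezh1 was −0.99, just inside the threshold, and it passed it with upper quartile scaling (−1.10) or after scaling to the geometric mean of the sums (−1.46). Ezh2 was 3.19 times Ezh1 in mNRPCs and 0.333 times Ezh1 in retina. As shares of the pair, Ezh2 made up 76.1% and 25%. The retina values rested on predicted rows of Ezh2, and on curated rows Ezh2 was 2.40 times Ezh1 in mNRPCs (70.6% of the pair) and 0.0413 times Ezh1 in retina (3.97%).

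Bmi1, the PRC1 subunit (chr2:18677018-18686629), had the highest summed FPKM of the 10 genes in both libraries. It was at 41.4 FPKM in mNRPCs and 56.3 FPKM in retina, percentiles 84.6 and 91.1 of the genes compared. The retina level was 1.36-fold higher (95% interval 1.24 to 1.49), and the log2 ratio was −0.43. This value rested on the transcript rows taken. The curated row NM_007552.4 was at 9.64 FPKM in mNRPCs and 30.9 FPKM in retina, a log2 ratio of −1.58, whereas the predicted row XM_006497311.2 was at 30.9 and 19.2 FPKM, which turned the log2 ratio to 0.66 when that single row was used. On curated rows alone Bmi1 had less FPKM in mNRPCs than Dnmt1 (29.7), Uhrf1 (16.9) and Ezh2 (14.9).

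**Figure D2:**
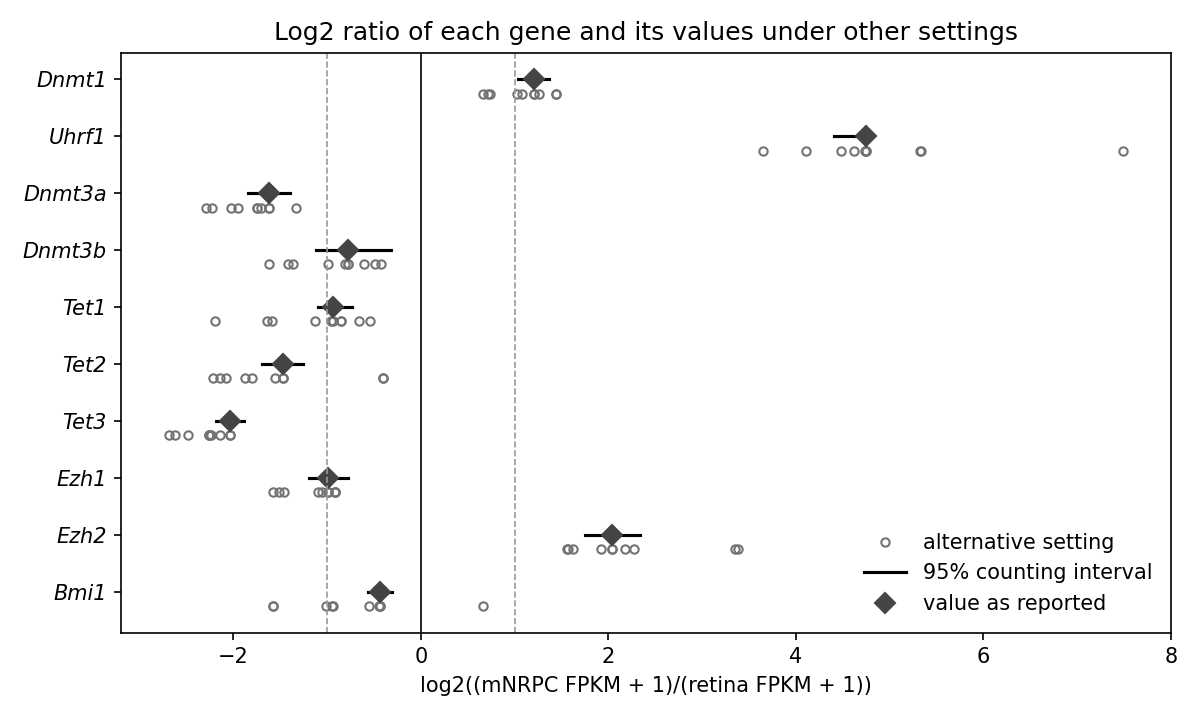
Log2((mNRPC FPKM + 1)/(retina FPKM + 1)) of each gene, as reported (diamond, with its 95% counting interval) and under the alternative settings (open circles), with dashed lines at −1 and 1. For Bmi1 the circles lie on both sides of 0, from −1.58 to 0.66, and for the other 9 genes they stay on the side of the reported value.

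**Figure D3:**
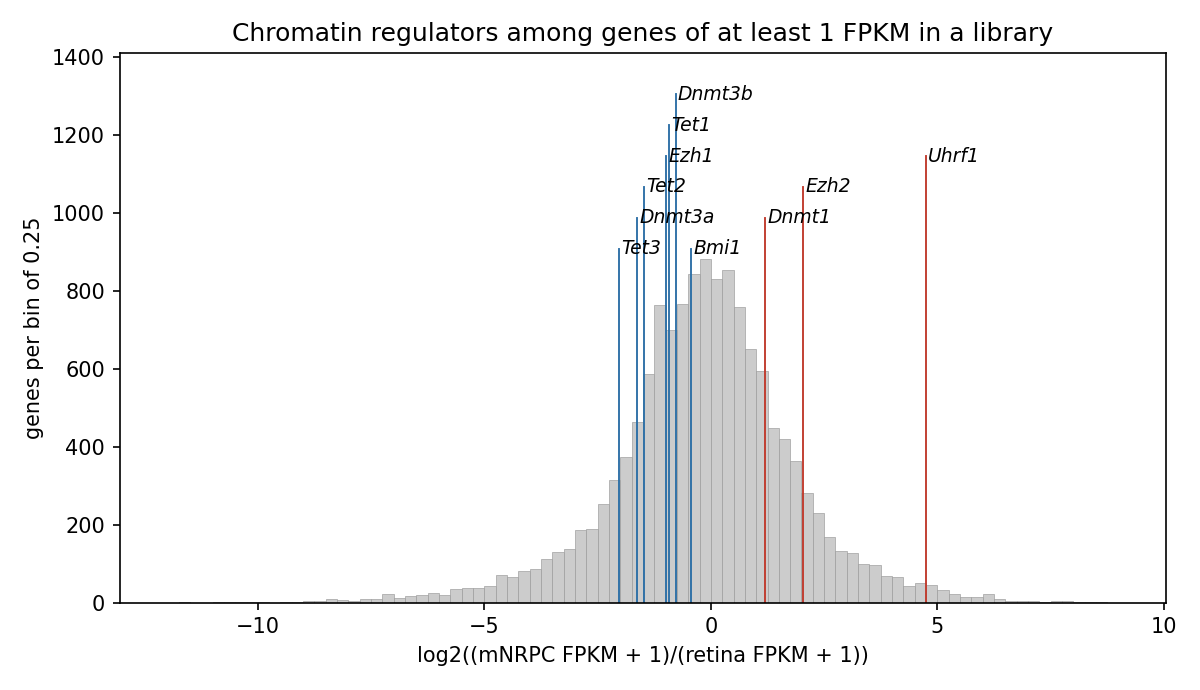
Number of genes per bin of 0.25 in the log2 ratio among 13780 genes of at least 1 FPKM in a library (grey bars), with a line at each of the 10 genes. Uhrf1 lies in the upper tail at 4.74, and Tet3 at −2.04 lies within the lower shoulder of the distribution, at percentile 13.7.

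The division of reads among transcript rows was described next, since it shows which forms the signal was assigned to. Such shares are estimates, because most of the sequence is common to the rows of a gene. The leading row was the same in both libraries for 4 of the 10 genes, Dnmt1, Dnmt3b, Tet3 and Ezh1. This count includes genes whose leading row is poorly determined. In retina the 6 rows of Uhrf1 held 16.4% to 17.0% each. For Tet1, NM_027384.1 held 44.5% in mNRPCs and 42.0% in retina, and NM_001253857.1 held 39.1% and 43.9%. Ezh1 was the steadiest, with NM_007970.3 at 66.0% in mNRPCs and 64.4% in retina. Ezh2 differed most. In mNRPCs 48.3% of its FPKM lay on the curated row NM_007971.2, against 7.99% in retina, where XM_006505525.1, XM_006505528.1 and XM_006505527.1 held 29.7%, 27.4% and 24.4%. On curated rows alone the log2 ratio of Ezh2 was 3.39. The short form of Dnmt3a, NM_153743.4, starts 84714 bp downstream of the first curated start and codes for 689 residues instead of 908. It was at 0.485 FPKM in mNRPCs and 0.961 FPKM in retina, 21.7% and 10.7% of the gene. The long-form rows NM_007872.4 and NM_001271753.1 together with the predicted rows made up the rest. For Dnmt1, NM_001199431.1 and NM_010066.4, which share a start at position 20952979 of chromosome 9 and code for 1620 residues, held 36.2% and 31.0% in mNRPCs and 38.9% and 23.0% in retina. NM_001199432.1, whose annotated start lies 6909 bp upstream of theirs and whose product has 1501 residues, held 24.5% and 12.5%. For Dnmt3b, NM_001122997.2 and XM_006498684.2 held 45.3% and 41.2% in retina. In mNRPCs they held 16.7% and 7.33%, but the whole gene rested on an estimated 9.91 fragments there, too few to divide over 18 rows.

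**Figure D4:**
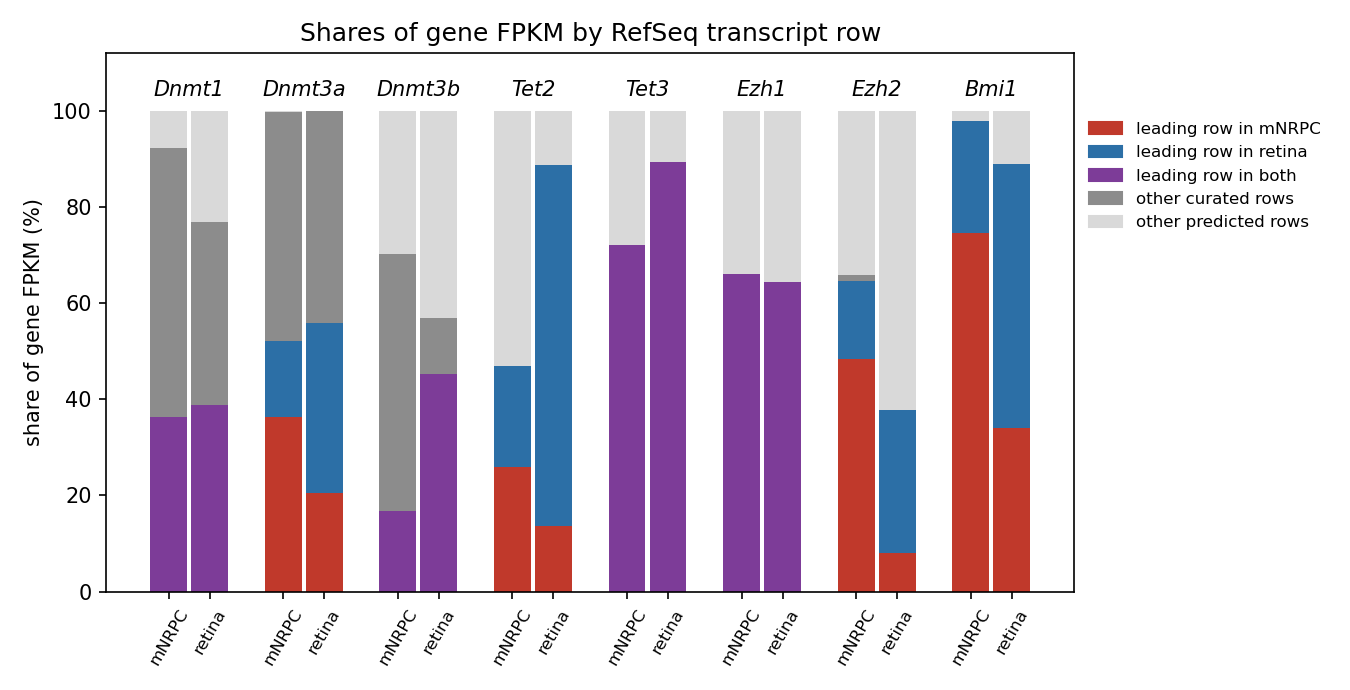
Share of the FPKM of a gene (%) held by its leading transcript row in mNRPCs, its leading row in retina, a row that leads in both, other curated rows and other predicted rows, for 8 genes with 1 mNRPC and 1 retina bar each. The bars of Ezh1 are nearly equal (66.0% and 64.4% on the leading row), while those of Ezh2 and Bmi1 differ.

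The promoters of the genes were then searched for the letters of the E2F site, since E2F factors are known to drive genes of the S phase. The motif was chosen with the expression values known. TTTCCCGC, TTTCGCGC, TTTGCCGC and TTTGGCGC were searched on both strands in RefSeq promoter windows of GRCm38.p6, 250 bases before to 50 after a start, and all 10 genes had at least 1 window. A match was found for 3 of the 10 genes, Uhrf1, Dnmt1 and Ezh2, which are the 3 genes higher in mNRPCs. Of 27018 genes with a window 2.61% had a match, and of 32841 windows 2.27%. The sequences with a match are shown, with that of Ezh1, the paralogue of Ezh2 without one. They are given 5′ to 3′ on the strand of the gene, with matches in capitals. They are Uhrf1 promoter 2 at chr17:56304063-56304362 (plus strand), Dnmt1 promoter 1 at chr9:20952574-20952873 (minus strand), Ezh2 promoter 1 at chr6:47594981-47595280 (minus strand) and Ezh1 promoter 1 at chr11:101226414-101226713 (minus strand).
Uhrf1 promoter 2: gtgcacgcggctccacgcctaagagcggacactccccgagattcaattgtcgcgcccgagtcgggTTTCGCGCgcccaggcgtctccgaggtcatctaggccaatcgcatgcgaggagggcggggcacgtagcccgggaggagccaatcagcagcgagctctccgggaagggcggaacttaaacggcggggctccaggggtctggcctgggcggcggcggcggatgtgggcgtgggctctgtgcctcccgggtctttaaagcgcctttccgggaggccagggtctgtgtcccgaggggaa
Dnmt1 promoter 1: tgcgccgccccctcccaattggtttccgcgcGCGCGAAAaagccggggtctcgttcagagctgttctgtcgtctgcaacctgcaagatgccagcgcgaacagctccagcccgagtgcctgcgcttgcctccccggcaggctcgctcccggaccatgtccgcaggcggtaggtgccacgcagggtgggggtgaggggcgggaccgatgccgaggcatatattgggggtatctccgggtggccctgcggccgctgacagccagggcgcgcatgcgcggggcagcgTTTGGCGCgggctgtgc
Ezh2 promoter 1: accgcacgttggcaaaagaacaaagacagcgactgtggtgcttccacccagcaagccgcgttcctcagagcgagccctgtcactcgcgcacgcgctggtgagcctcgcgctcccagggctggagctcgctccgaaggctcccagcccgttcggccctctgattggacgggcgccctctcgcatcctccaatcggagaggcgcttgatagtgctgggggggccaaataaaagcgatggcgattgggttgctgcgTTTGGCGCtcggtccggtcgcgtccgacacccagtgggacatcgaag
Ezh1 promoter 1: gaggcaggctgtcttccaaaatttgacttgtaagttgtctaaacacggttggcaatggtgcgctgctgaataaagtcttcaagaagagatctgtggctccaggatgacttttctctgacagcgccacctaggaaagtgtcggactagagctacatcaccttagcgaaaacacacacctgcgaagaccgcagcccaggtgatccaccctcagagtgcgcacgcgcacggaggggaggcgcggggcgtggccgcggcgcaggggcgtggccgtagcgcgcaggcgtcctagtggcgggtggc

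In the Uhrf1 window TTTCGCGC lay 185 to 178 bases upstream of the start. In the Dnmt1 window TTTCGCGC lay on the opposite strand, 219 to 212 bases upstream, and TTTGGCGC lay downstream of the start, at bases 284 to 291 of the window. In the Ezh2 window TTTGGCGC lay at bases 254 to 261, just past the start. No matches overlapped. The other Uhrf1 window and the other 2 Dnmt1 windows had none, and in mNRPCs the leading rows of both genes start nearer to those windows than to the ones shown. The motif holds CG, and the windows of the 10 genes held a median of 23 CpG, against 7 over all windows. Of the 7071 windows with 23 CpG or more, 5.29% had a match. The part of CpG content in the matches was not tested. A match is a description of letters and not a bound site.

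Genes of replication and division were set beside the maintenance genes and Ezh2, as all 3 are known from dividing cells. Of 27 such genes 26 were higher in mNRPCs and 0 lower, with a median log2 ratio of 3.53. Among the genes compared 24.5% were higher. Cdk1, the kinase of mitotic entry, was at 84.4 FPKM in mNRPCs and 0.150 FPKM in retina (log2 ratio 6.21), Top2a, a topoisomerase of dividing cells, at 79.7 and 0.0933 (6.21) and Ccnb1, a mitotic cyclin, at 68.1 and 0.773 (5.28). Pcna, the replication clamp, was at 200.4 and 94.2 FPKM (1.08, or 0.57 after scaling to the same FPKM sum). Tyms, which makes thymidylate, was at 11.5 and 12.4 FPKM (−0.11, or 0.09 on curated rows). Uhrf1 thus lay within the range of this list, and Dnmt1 near its lower end. Of 23 genes of the list with a promoter window, 9 (39.1%) had an E2F match. In the other lists described below it was 2 of 24 Polycomb partners, 1 of 18 genes of the DNA methylation pathway, 1 of 24 Polycomb targets and 2 of 14 germline genes. Of all genes with a window 2.61% had a match. The lists were not matched for CpG content, and its part in these shares was not tested.

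The partners of the Polycomb subunits lay on both sides of the retina level. Of 30 genes, 6 were higher in mNRPCs, 7 were lower and 17 lay between, with a median log2 ratio of −0.10. Neither share exceeded that among all genes compared (24.5% higher and 30% lower), and after scaling to the geometric mean of the sums 11 were lower, where 39.5% of all genes were. The remaining PRC2 core subunits did not follow Ezh2 as a group, with log2 ratios from −0.50 to 1.70 and 1 of 4 past the threshold. That gene was Rbbp7, a histone-binding subunit, at 180.5 FPKM in mNRPCs and 54.8 FPKM in retina (1.70). Ezh2 was 1.30 times Eed, another core subunit, in mNRPCs and 0.357 times Eed in retina. Jarid2, which recruits PRC2, was lower, at 2.52 and 17.7 FPKM (−2.40). Among PRC1 genes, Pcgf5, a relative of Bmi1 in variant complexes, was at 15.9 and 0.577 FPKM (3.42) and Phc2, a polyhomeotic subunit, at 183.9 and 60.1 FPKM (1.6), or 0.28 and not called on curated rows. Phc1, of the same family, was at 7.35 and 24.5 FPKM (−1.61), and Cbx7, which reads methylated H3K27, at 4.75 and 29.0 FPKM (−2.38). The 5 chromobox genes had 0 higher and 2 lower. Both H3K27 demethylase genes of the list lay at log2 ratios of 0.01 and 0.03.

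Of 21 further genes of the DNA methylation pathway, 9 were higher in mNRPCs, 3 were lower and 9 lay between, with a median log2 ratio of 0.63. Among all genes compared 24.5% were higher and 30% lower. After scaling to the geometric mean of the sums 6 were higher and 4 lower, against 17.9% and 39.5% of all genes. Scaled to the larger sum with rod and cone genes left out, 6 were higher and 6 lower, against 17.7% and 43.9%. Hells, a remodeller needed for maintenance methylation, was at 22.7 FPKM in mNRPCs and 2.05 FPKM in retina (log2 ratio 2.96). Usp7, a deubiquitinase that binds UHRF1 and DNMT1, was at 30.9 and 43.9 FPKM (−0.49), and it was called lower on curated rows (−1.53). Zbtb4, a methyl-CpG reader gene, was lower, at 8.59 and 37.3 FPKM (−2.00). Of the base excision repair genes, Apex1 was at 77.7 and 12.3 FPKM (2.56) and Smug1 at 4.35 and 30.3 FPKM (−2.55, or −1.05 on curated rows). Idh2, an enzyme that makes the alpha-ketoglutarate used by TET proteins, was at 155.8 and 13.9 FPKM (3.40). Dnmt3l, the cofactor of de novo methylation, had 0.112 FPKM in retina, an estimated 0.958 fragments, and was listed at 0 in mNRPCs.

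Of 41 known targets of Polycomb repression, 8 were higher in mNRPCs, against 10.8% of all 31253 genes without a minimum level. No other gene of the list reached 1 FPKM in either library. The count was 19 with a pseudocount of 0.1 FPKM, against 14.3% of all genes at that setting, and 6 on curated rows. The Hox genes were listed at 0 in retina and so could not be lower in mNRPCs, and 6 of the 8 calls were Hox genes that passed on the added 1 FPKM. Cdkn2a, which encodes the inhibitors p16 and p19 and is repressed by BMI1 in neural stem cells, was at 303 FPKM in mNRPCs and 0.333 FPKM in retina (log2 ratio 7.83). Its neighbour Cdkn2b was at 54.2 and 0.689 FPKM (5.03). Of the 39 Hox genes, 20 were above 0 in mNRPCs, 13 were above the level of 3 estimated fragments and 6 were at 1 FPKM or more. Hoxc6 was at 21.9 FPKM, Hoxb3 at 2.79, Hoxb8 at 2.68 and Hoxc4 at 1.95, and Hoxb6 (7.39 FPKM) and Hoxb7 (3.27 FPKM) were added after their values were seen. Hoxb8 rested almost wholly on predicted rows. Hoxc6 rested on them in part, with a log2 ratio of 4.52 on all rows and 3.43 on curated rows. The 6 Hox genes with at least 1 FPKM belonged to the Hoxb and Hoxc clusters, and no Hoxa or Hoxd gene reached it. A value of 0 in these files can be a failed estimate, so no fold is given for single Hox genes.

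**Figure D5:**
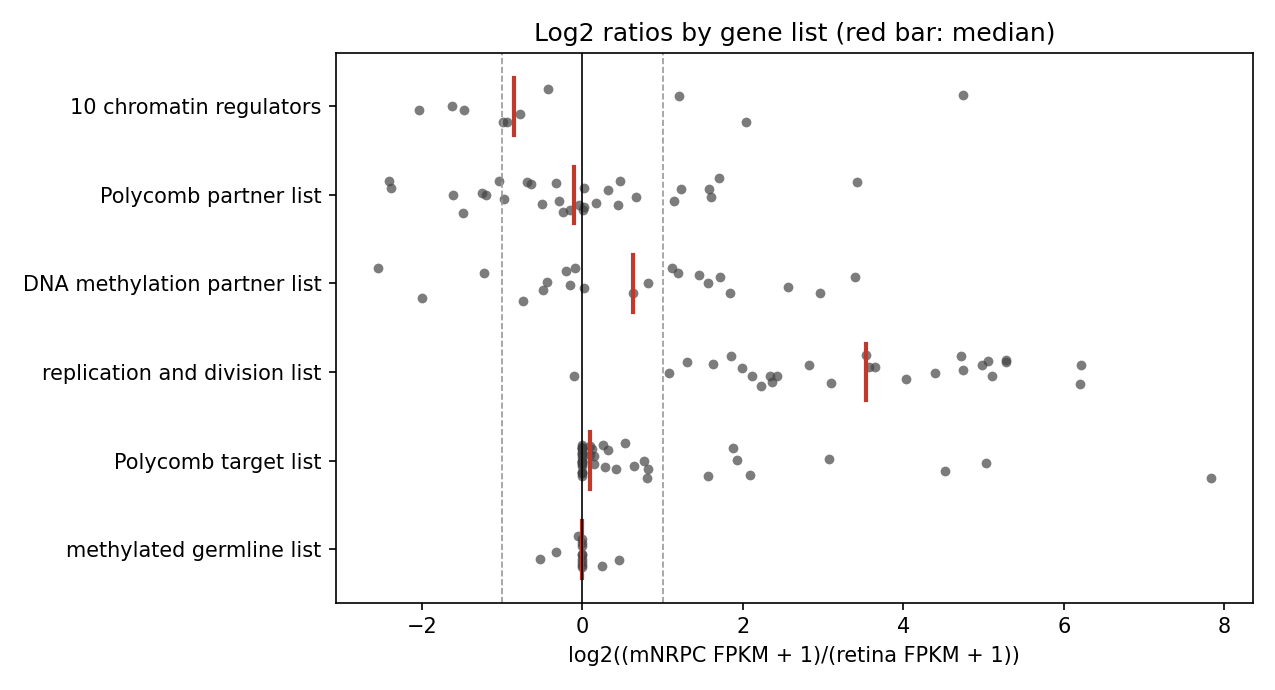
Log2((mNRPC FPKM + 1)/(retina FPKM + 1)) of each gene (points) in the set of 10 and in 5 further lists, with the list median as a red bar and dashed lines at −1 and 1. The replication and division genes lie to the right with a median of 3.53, while the 10 regulators and the Polycomb partners spread to both sides of 0.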

How the data were processed

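RNA sequencing values of 2 libraries, 1 of mNRPCs at passage 24 and 1 of retina tissue, were taken from 1 deposited table. The authors gave FPKM for each of 106754 RefSeq transcripts. The submitters' processing notes name TopHat2 2.0.10 and GRCm38.p3, whereas the study's methods name Bowtie 2 and eXpress, and which of them made the table is not given in the sources used here. Values below 1e-06 FPKM were read as 0.

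Accessions were matched without version to the RefSeq gene table of GRCm38.p6 and otherwise to GENCODE M21, which named 69.6% of rows and 99.6% of curated rows. The unnamed rows held 44.2% of predicted transcripts, so predicted forms of the genes described may be missing from the sums. Rows were summed per gene. No other sample columns were in the table.

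Depth was estimated from the value of 1 fragment in genes with a single row of at least 1500 bp, where low values times length gather. Of the low rows, 47.4% in mNRPCs and 46.5% in retina lay within 0.2 of a whole fragment, where evenly spread values would give 40%. Values were not clean multiples, no fragments were tested, and the fragment estimates and the intervals made from them are approximate. Predicted rows took the median length of their gene. The calculation was tested on simulated data made of whole fragments. Python 3.11.15, pandas 2.3.3 and scipy 1.17.1 were used.

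The members, gene lists, motif and alternatives were chosen with earlier results of these data known. From each further list, the 3 genes with the largest and the 3 with the smallest log2 ratio among those of at least 1 FPKM and the most abundant gene of each library could be named. Some genes of the lists are not reported here. Alternatives were the pseudocount, scaling, filter, rows, names and threshold. Names from the RefSeq table alone and scaling to the geometric mean of the sums were added after the data were seen.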

Additional observations from a re-analysis of the deposited data

How the results depend on the processing

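No paired analysis was possible because there was only 1 library of each kind. Uhrf1 and Ezh2 were higher and Dnmt3a and Tet3 lower by at least 2-fold in each alternative for pseudocount, scaling, rows and names. The number of higher members was 2 after each scaling to a common sum, with or without rod and cone genes, and 2 at a 4-fold threshold, and 3 otherwise. The number of lower members was 6 with a pseudocount of 0.1 and 6 after scaling to the larger common sum, through Dnmt3b, Tet1 and Ezh1, 7 when rod and cone genes were left out as well, 5 after scaling to the geometric mean of the sums, through Tet1 and Ezh1, and 1 at a 4-fold threshold. With curated rows it was 3, with Bmi1 in the place of Tet2. At the 4-fold threshold 11.2% of all genes compared were higher and 14.1% lower. Without rod and cone genes these shares were 17.7% and 43.9% at the 2-fold threshold. The member median moved to −1.34 with a pseudocount of 0.1, −1.44 after scaling to the larger sum, −1.5 without rod and cone genes and −0.64 with accessions matched by version. For the Polycomb partners the median was −0.52 after scaling to the larger sum, −0.50 at the geometric mean and −0.58 without rod and cone genes, and for the DNA methylation partners 0.13, 0.13 and 0.065. The replication and division median was 4.04 with a pseudocount of 0.1, 3.13 at the geometric mean, 3.10 with curated rows and 2.62 with versioned accessions. That of the Polycomb targets was 0.78 with a pseudocount of 0.1. The leading transcript row was shared by 7 members among curated rows, against 4 on all rows. Tet2, Tet3, Ezh1 and Bmi1 have 1 curated row each, so for them a shared row was fixed in advance. On curated rows the log2 ratios were 4.11 for Uhrf1, 4.14 for Hells, 4.06 for Pcgf5, 5.10 for Top2a and −1.39 for Zbtb4. A smaller pseudocount widens the ratios of low genes by construction, and the larger sum does so too, since it changes both the scaling and the weight of the added 1 FPKM. For the other shifts the cause was not tested. Of 100 alternative values of single members, 47 lay within the counting interval of the reported one and 53 outside it. Depth limits Uhrf1 in retina and Dnmt3b in mNRPCs most.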

Other observations

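Germline genes whose promoters are known to be methylated in somatic cells were listed at 0 or at values under 1 FPKM. Of 14 such genes, 12 were listed at 0 in mNRPCs and 10 in retina, where a 0 can be a failed estimate. Of the 14 genes 0 reached 1 FPKM in either library, so with 1 FPKM added to the deposited values none of them could pass the 2-fold threshold. After scaling to the larger sum 1 was lower. Of the genes of at least 1 FPKM at that scaling 42.4% were lower. Most of the 14 genes lack that level, so these shares are not comparable. With a pseudocount of 0.1 FPKM, 1 was higher and 2 were lower in mNRPCs, against 14.3% and 20.7% of all genes without a minimum level. Ddx4 had the highest level of them in mNRPCs, at 0.712 FPKM, and was at 0.440 FPKM in retina. Sycp3, the highest in retina at 0.442 FPKM, an estimated 2.51 fragments, was listed at 0 in mNRPCs.

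The promoter windows of the 10 regulators were rich in CpG. Over their 15 windows the median number of CpG was 23, against 7 over all windows of that length. The observed to expected CpG ratio had a median of 0.708, against 0.384. The lowest of the 15 was the most upstream Dnmt1 window (0.101), which belongs to the start of NM_001199432.1, and the highest was that of Tet2 (1.17).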
